A study of Homo sapiens with 8 samples.

Results

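Actin cytoskeleton genes and targets of serum response factor (SRF) were examined for changes in chromatin accessibility after hyperosmotic stress. The set held 10 genes, namely ACTB, ACTG1, TPM1, TPM4, MYH9, MYL9, VCL, ZYX, FHL2 and SRF. Its members were the peaks that overlap the RefSeq body of a listed gene or the 10 kb on each side, and 60 of the 129536 peaks in the table met this rule. The assay was Omni-ATAC-seq, whose transposase inserts adapters where DNA is not shielded by nucleosomes, and the cells were HEK293, a human embryonic kidney line, of genotype eGFP-YAP. There were 4 vehicle libraries and 4 libraries of cells given 0.2 M sorbitol for 1 h, each from 50000 cells and sequenced as 75 bp pairs. The count columns are named cont_0h for vehicle and sorb_1h for sorbitol libraries, and the sample labels give no time for vehicle. A difference in time between the groups, if there was one, cannot be told apart from sorbitol. The series description adds that cells were starved of serum for 1 h before sorbitol; it does not say whether the vehicle cells were, and it calls the controls untreated where the sample labels say vehicle. The titles name only HEK293, and how the eGFP-YAP line was made and whether it is a single clone is not given in the sources used here. Total counts in peaks ran from 14757015 to 19831471 in vehicle libraries and from 11522266 to 14355727 in sorbitol libraries. Nothing in the labels says that replicates came from separate cultures, so p-values measure the spread between these libraries, which may be technical. In a bulk sample, a locus open in fewer cells and a locus less open in each cell cannot be told apart.

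Actin filaments give cells their shape and tension, and cells losing water rebuild them. SRF binds a short DNA element called the CArG box, and it switches on actin and contractile genes when its cofactors MRTFA and MRTFB are released from unpolymerised actin and enter the nucleus. Serum acts on this pathway, and the SRF gene is itself a known SRF target.

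The 250 bases upstream of RefSeq starts were searched for CArG boxes, because these mark where SRF can bind at the members. The RefSeq table of promoters (GRCh38.p14) held 14 starts for 8 of the 10 genes, and ACTB and MYL9 had no entry. The box is palindromic, so a search of 1 strand covers both, and it was found upstream of 407 of 35116 starts in the table (1.16%). Among the members it lay at 2 places before the main SRF start, at 1 place before ACTG1, and before 3 of the 4 FHL2 starts and 1 of the 3 TPM4 starts. The outer FHL2 starts, at 105438513 and 105438529, share the same box, which is counted for each. Each sequence below gives the 120 bases before a start, 5′ to 3′ on the strand of the gene, with CArG boxes in capitals. They are shown because these starts carry the element within reach of the start, and the first 3 windows lie inside a peak whereas the last does not.
SRF, plus strand, chr6:43171149-43171268: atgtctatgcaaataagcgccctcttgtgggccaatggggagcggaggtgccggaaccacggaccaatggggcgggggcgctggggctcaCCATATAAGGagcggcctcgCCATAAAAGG
ACTG1, minus strand, chr17:81512800-81512919: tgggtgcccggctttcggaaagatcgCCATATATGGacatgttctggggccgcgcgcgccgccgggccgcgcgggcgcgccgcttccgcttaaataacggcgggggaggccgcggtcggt
FHL2 internal start, minus strand, chr2:105399052-105399171: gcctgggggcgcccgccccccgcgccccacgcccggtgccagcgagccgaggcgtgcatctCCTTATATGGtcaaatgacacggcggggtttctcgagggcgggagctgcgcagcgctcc
FHL2 outer start, minus strand, chr2:105438514-105438633: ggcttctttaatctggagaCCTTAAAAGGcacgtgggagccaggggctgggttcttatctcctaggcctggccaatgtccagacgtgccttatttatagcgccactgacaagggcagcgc
Counting the base before the start as -1, the boxes began at -30 and -10 in SRF, at -94 in ACTG1, at -59 before the internal FHL2 start and at -101 before the outer start. The TPM4 box, CCAAATAAGG, began at -173 of the outer TPM4 start (16067538), which no peak overlapped. The pattern searched was CC, then 6 bases that are each A or T, then GG. No exact match to it was found in these windows for VCL, ZYX, TPM1 or MYH9. Elements that differ by 1 base were not counted, for example CCTTGTATGG before ZYX and CCAAATAAGT before an internal TPM4 start. The GC box GGGCGG, searched on both strands and present in 42.6% of all windows, occurred 6 times before MYH9, 5 times before ZYX and 4 times before ACTG1. The 6-letter core GGAATG of TEAD sites, searched on both strands and present in 11.9% of all windows, occurred once each before MYH9 and VCL, whose listed starts lie in peaks, and before 1 FHL2 start.

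After sorbitol, 13 of the 60 peaks were lower and 4 were higher, and 43 did not pass the test. Lower peaks lay at the starts of MYH9, SRF and VCL, inside MYH9, SRF and TPM4, and in the flanks of ACTB, ACTG1, SRF and TPM4. Higher peaks lay at the internal start of FHL2, inside FHL2 and TPM1, and beside ACTG1. Calls rest on the edgeR quasi-likelihood test at a Benjamini-Hochberg adjusted p under 0.05 over all 129487 tested peaks, and all 60 passed the filter on low counts. Lower peaks made up 21.7% of members against 13.1% of all tested peaks, and higher peaks 6.67% against 16%. Calls also went with peak strength: in the decile of highest mean CPM (defined below), 43.8% of 12949 peaks were lower and 8.55% higher. Its 4974 peaks off listed RefSeq starts had 36.3% lower and 13.7% higher. The members had a median of 4.64 CPM against 3.02 for all tested peaks, and 10 of the 60 lay in that decile. Whether strength accounts for the share of lower members was not tested. The median log2 fold change was -0.13 for the members and 0.01 for all tested peaks. At least 2-fold changes were called at 1 higher and 1 lower member, beside 5.27% and 0.881% of all tested peaks. All 4 sorbitol libraries lay above all 4 vehicle libraries at 3 members and below them at 17, where the shares over all tested peaks were 13.7% and 12.6%.

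Start peaks and other peaks had different backgrounds. Of the 10 start peaks of the set, 1 per gene, 3 were lower and 1 was higher, with a median of -0.06. Over the 12240 tested peaks that overlap any RefSeq start, 42.1% were lower and 6.77% higher, with a median of -0.19. The 48 members away from any listed RefSeq start held 9 lower and 3 higher peaks, with a median of -0.14. They include the peak over the outer end of TPM1, where no start is listed. Over the 117247 tested peaks that overlap no listed RefSeq start, 10.1% were lower and 16.9% higher, with a median of 0.04. Of these, the 64177 inside genes and more than 1 kb from any gene end had 8.16% lower and 19.1% higher, with a median of 0.07. That smaller set leaves out flanks and gene ends, which the 48 members include. The remaining 2 members overlap the starts of neighbours, RAB8A beside TPM4 and CUL9 beside SRF. These medians are relative to the scaling: factors computed from peaks near gene ends raise the median of all peaks to 0.19, that of the members to 0.04 and that of their start peaks to 0.12. With those factors 9 members were higher and 9 lower, as were 34038 and 8670 of all tested peaks.

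**Figure D1:**
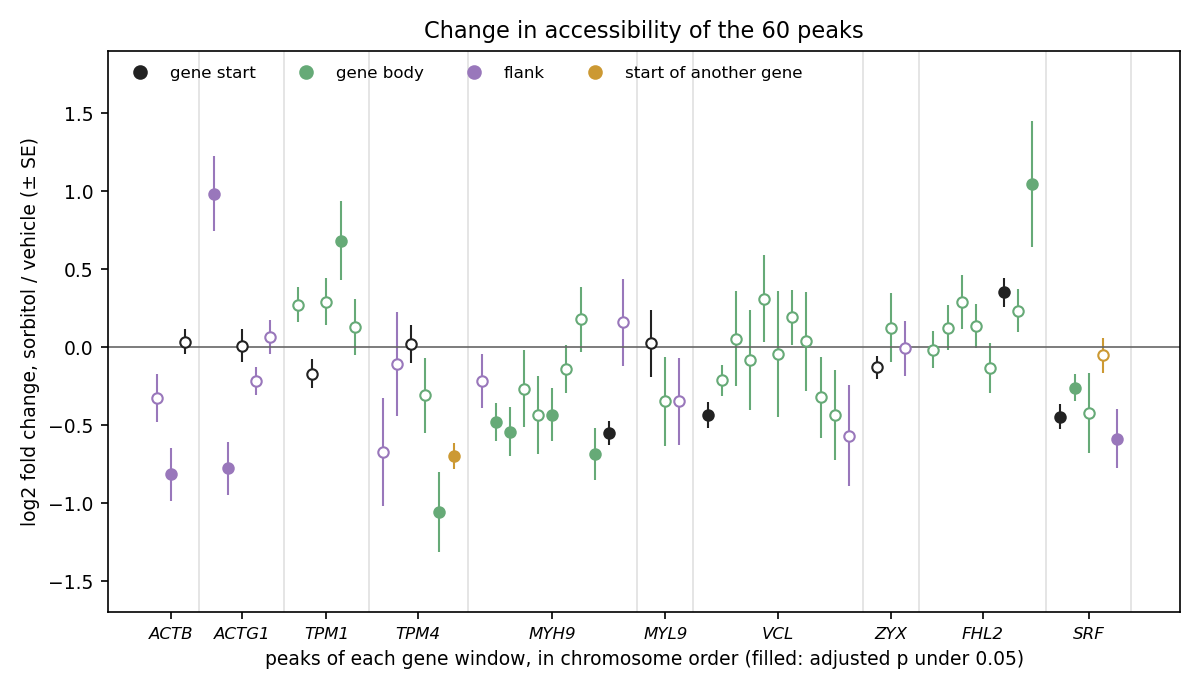
Log2 fold change of each of the 60 peaks (y axis, sorbitol over vehicle, bars ± SE) by gene window (x axis, peaks in chromosome order), with filled points for an adjusted p under 0.05. Filled points of MYH9 and SRF all lie below 0, and those of FHL2 lie above it.

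The 2 cytoplasmic actin genes, ACTB and ACTG1, encode the actin of non-muscle cells, and their start peaks did not pass the test. The ACTB peak on chromosome 7 (5529500 to 5531199), at the end from which ACTB is transcribed, had 64.8, 66.8, 56.3 and 63.1 CPM in vehicle replicates 1 to 4 and 62.6, 64.7, 61.6 and 68.2 CPM in the sorbitol libraries. CPM are counts per 1000000 of the library size, after TMM scaling of that size (a trimmed mean over peaks). The groups overlapped, with a log2 fold change of 0.04 (95% interval -0.12 to 0.19) and an adjusted p of 0.781. This value depends on the scaling: with a loess offset it became 0.24 (adjusted p = 0.00506) and with factors from peaks near gene ends 0.21 (0.0120), both called higher. The ACTG1 start peak on chromosome 17 (81512411 to 81513084), which holds the CArG box at -94, had 16.6, 17.1, 15.01 and 14.3 CPM in vehicle and 16.4, 16.2, 13.6 and 17.2 CPM in sorbitol libraries. Its log2 fold change was 0.01 (interval -0.20 to 0.22, adjusted p = 0.960).

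A single peak downstream of each actin gene was lower. A 278 bp peak 985 bp beyond the low-coordinate end of ACTB (5525885 to 5526163), also within 1 kb of an end of the lncRNA gene LOC221946, had 5.78, 5.72, 6.29 and 5.61 CPM in vehicle and 3.75, 2.80, 3.26 and 3.505 CPM in sorbitol libraries. All sorbitol values lay below all vehicle values, with a log2 fold change of -0.82 (SE 0.17) and an adjusted p of 0.000225. The other ACTB flank peak (5522935 to 5523434) overlapped between groups and did not pass (-0.33, adjusted p = 0.105). A peak 2458 bp beyond the 3′ end of ACTG1 (81506997 to 81507513) had 5.51, 6.20, 5.68 and 6.09 CPM in vehicle and 3.25, 3.03, 3.68 and 3.71 CPM in sorbitol libraries. Its groups did not overlap either, and the log2 fold change was -0.78 (SE 0.17, adjusted p = 0.000372). Farther out, 9698 bp beyond the same end of ACTG1, a weak peak (81499742 to 81500273) rose by 0.98 on the log2 scale (adjusted p = 0.00143), from 1.39 to 3.08 CPM in vehicle to 2.64 to 6.03 CPM in sorbitol libraries, so the groups overlapped. The strongest ACTG1 peak, 421 bp upstream of its start and within 1 kb of FSCN2 (81513220 to 81514626), went from a mean of 27.3 to 23.4 CPM. Its sorbitol libraries all lay below vehicle, but the change of -0.22 did not pass (adjusted p = 0.0593; 0.0470 with DESeq2 size factors).

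Tropomyosins lie along actin filaments and steady them, and TPM1 and TPM4 each make long and short isoforms from separate starts. At TPM1 on chromosome 15, the peak over the internal RefSeq start (63047978 to 63049306) had 22.8, 26.4, 23.8 and 24.3 CPM in vehicle and 22.0, 22.4, 21.8 and 20.3 CPM in sorbitol libraries. The peak over the low-coordinate end of the gene, 5309 bp upstream of that start (63041915 to 63043180), had 11.4, 12.6, 11.9 and 12.2 CPM in vehicle and 15.6, 12.7, 14.7 and 15.3 CPM in sorbitol libraries. All sorbitol libraries were below vehicle at the internal start and above vehicle at the outer end, and neither change passed the test: -0.17 (adjusted p = 0.161) and 0.27 (0.0536). Inside TPM1, a 220 bp peak at 63053409 to 63053629 rose by 0.68 (SE 0.25, adjusted p = 0.0339), with 1.34 to 1.63 CPM in vehicle and 2.18 to 2.68 CPM in sorbitol libraries. It held a mean of 27.8 counts per library, and it missed the threshold with DESeq2 (adjusted p = 0.0617) or a loess offset (0.0952), and without vehicle 3 or 4 or without sorbitol 1 or 3 (0.0565 to 0.0900).

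At TPM4 on chromosome 19, the peak over the internal starts (16075995 to 16077127) had 12.0, 10.1, 10.4 and 11.2 CPM in vehicle and 10.2, 10.1, 13.4 and 10.6 CPM in sorbitol libraries. The groups overlapped, with a change of 0.02 (interval -0.22 to 0.26, adjusted p = 0.928). The outer start had only a weak peak 654 bp upstream of it, with 0.753 to 1.91 CPM in vehicle and 0.777 to 1.59 CPM in sorbitol libraries. A peak inside TPM4, 1803 bp past the nearest internal start (16078819 to 16079171), had 3.26, 5.00, 2.94 and 1.92 CPM in vehicle and 1.83, 1.87, 1.34 and 1.31 CPM in sorbitol libraries. The highest sorbitol value was just under the lowest vehicle value, and the change of -1.06 (SE 0.25, adjusted p = 0.00124) was the only lower one of at least 2-fold. It stayed called but short of 2-fold without vehicle 2 (-0.78), sorbitol 3 (-0.99) or sorbitol 4 (-0.98), with library totals alone (-0.97) and with factors from peaks near gene ends (-0.88). The smallest p in the set belonged to a peak in the TPM4 flank (16110661 to 16112110) that overlaps the start of RAB8A, a vesicle transport GTPase, and not TPM4. It fell from 56.4 ± 3.36 to 34.7 ± 3.06 CPM (SD, n = 4), a log2 change of -0.70 (adjusted p = 4.71e-09). Of all 3318 tested peaks on chromosome 19, 49% were lower and 3.41% higher.

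Non-muscle myosin pulls on actin filaments; MYH9 encodes a heavy chain of it and MYL9 a regulatory light chain. MYH9 on chromosome 22 had the most lower peaks, 5 of 11 (45.5%), and none higher, beside 13.1% lower and 16% higher of all tested peaks. SRF had fewer lower peaks but a larger share, 3 of 5 (60%), and also none higher. The start peak (36387225 to 36388660) also covers the start of MYH9-DT, a divergent transcript, and had 87.5, 85.4, 77.4 and 73.4 CPM in vehicle and 55.4, 59.4, 55.1 and 51.3 CPM in sorbitol libraries. The groups stood well apart, with a log2 fold change of -0.55 (SE 0.08, adjusted p = 3.87e-07), or -0.34 with the loess offset, still past the threshold. Of the body peaks, that nearest the start (36386487 to 36386687, 1280 bp into the gene) fell by 0.69, from 5.72 ± 0.405 to 3.55 ± 0.273 CPM (SD, n = 4). The peaks at 36301288 to 36301748 and 36286388 to 36286965, 86219 and 101002 bp from the start, fell by 0.54 and 0.48, the latter by 0.30 with factors from peaks near gene ends. Adjusted p-values of these 3 body peaks were 0.00150, 0.00737 and 0.00226, and the second of them was lost with factors from peaks near gene ends (0.0678). A peak at 36352790 to 36353420 had -0.43 with an adjusted p of 0.0485, and it passed in 4 of 16 alternative fits; it was lost without vehicle 1 or 2 or any 1 sorbitol library, at adjusted p-values of 0.0524 to 0.240. The other 6 MYH9 peaks ranged from -0.43 to 0.18 and did not pass.

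MYL9 on chromosome 20 had 3 weak peaks, none of which passed. The peak 436 bp inside the gene (36541955 to 36542451) had 2.72, 6.14, 2.79 and 3.28 CPM in vehicle and 3.25, 3.11, 5.27 and 3.64 CPM in sorbitol libraries. Vehicle 2 and sorbitol 3 were the high libraries of their groups, and the change of 0.03 had an interval of -0.39 to 0.45 (adjusted p = 0.946). All 3 peaks also overlap DLGAP4-AS1, a lncRNA gene that spans MYL9.

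Vinculin (VCL) and zyxin (ZYX) link actin to cell adhesions. The VCL start peak on chromosome 10 (73997516 to 73998505) had 55.5, 57.7, 48.2 and 50.01 CPM in vehicle and 41.6, 39.3, 37.5 and 37.9 CPM in sorbitol libraries. It fell by 0.43 (SE 0.08, adjusted p = 5.51e-05) with no overlap, or by 0.25 with the loess offset and 0.26 with factors from peaks near gene ends, both past the threshold. The next peak, 922 bp into the gene (73999038 to 73999717), was also lower in all sorbitol libraries (19.1 to 19.8 against 16.2 to 17.6 CPM), but its change of -0.21 did not pass (adjusted p = 0.0905). The other 9 VCL peaks had at most 69 counts per library on average and changes from -0.57 to 0.31, none of which passed. The ZYX start peak on chromosome 7 (143380060 to 143382066), which also overlaps FAM131B and the start of FAM131B-AS2, had 97.4, 98.8, 100.5 and 95.6 CPM in vehicle and 85.0, 90.7, 86.6 and 96.5 CPM in sorbitol libraries. It held the most counts of the 60 peaks, and sorbitol 4 lay inside the vehicle range. Its change of -0.13 (interval -0.27 to 0.02) did not pass (adjusted p = 0.195), nor did the other 2 ZYX peaks.

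FHL2, a LIM-domain protein that binds SRF and other transcription factors, was the gene with higher accessibility at its start. The peak over an internal start on chromosome 2 (105398381 to 105399468), which also holds the CArG box at -59, had 22.6, 29.9, 29.5 and 25.8 CPM in vehicle and 30.7, 35.2, 33.1 and 38.8 CPM in sorbitol libraries. The lowest sorbitol library was just above the highest vehicle library, and the peak rose by 0.35 (SE 0.09, adjusted p = 0.00289). The outer starts near 105438529, whose CArG box is printed above, had no peak within 10 kb in the table. A weak body peak between the starts (105425412 to 105425643) had a change of 1.05 (SE 0.40, adjusted p = 0.0429). Its libraries had 0.816, 0.843, 0.0516 and 1.30 CPM in vehicle and 2.33, 1.17, 1.84 and 0.756 CPM in the sorbitol group, so the groups overlapped. With a mean of 15.3 counts per library it lost its call with DESeq2 (adjusted p = 0.360), a loess offset (0.232) or the replicate block (0.0720), and without vehicle 1, 2 or 3 or sorbitol 1 or 3 (0.0599 to 0.237). The change itself was 0.61 without vehicle 3, 0.76 without sorbitol 1, 0.93 without sorbitol 3 and 0.65 with the loess offset, all short of 2-fold. The other 6 FHL2 peaks ranged from -0.13 to 0.29 and did not pass.

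The SRF gene on chromosome 6 had lower accessibility at its start, where the 2 CArG boxes lie. The start peak (43170571 to 43171655) had 56.9, 57.8, 53.5 and 51.0 CPM in vehicle and 40.2, 42.1, 37.3 and 41.2 CPM in sorbitol libraries. The groups did not overlap, and it fell by 0.45 (SE 0.08, adjusted p = 2.67e-05), or by 0.26 with the loess offset and 0.27 with factors from peaks near gene ends, both past the threshold. A strong peak inside the gene (43174130 to 43174911) had 33.4, 34.9, 32.2 and 34.1 CPM in vehicle and 29.2, 30.3, 24.8 and 28.1 CPM in sorbitol libraries. It also fell, by 0.26 (SE 0.09, adjusted p = 0.0195). The call was lost with the loess offset (-0.10), with factors from peaks near gene ends (-0.08), with library totals alone or over peaks of higher mean count (both -0.18), and without vehicle 2 (-0.24) or sorbitol 3 (-0.21). In the downstream flank, a peak inside CUL9 (43189678 to 43190255) fell by 0.59 (adjusted p = 0.0147; lost without vehicle 3, 0.0704, without sorbitol 4, 0.117, or with factors from peaks near gene ends, 0.108), whereas the peak over the CUL9 start (43181746 to 43182621) had -0.05 and did not pass.

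**Figure D2:**
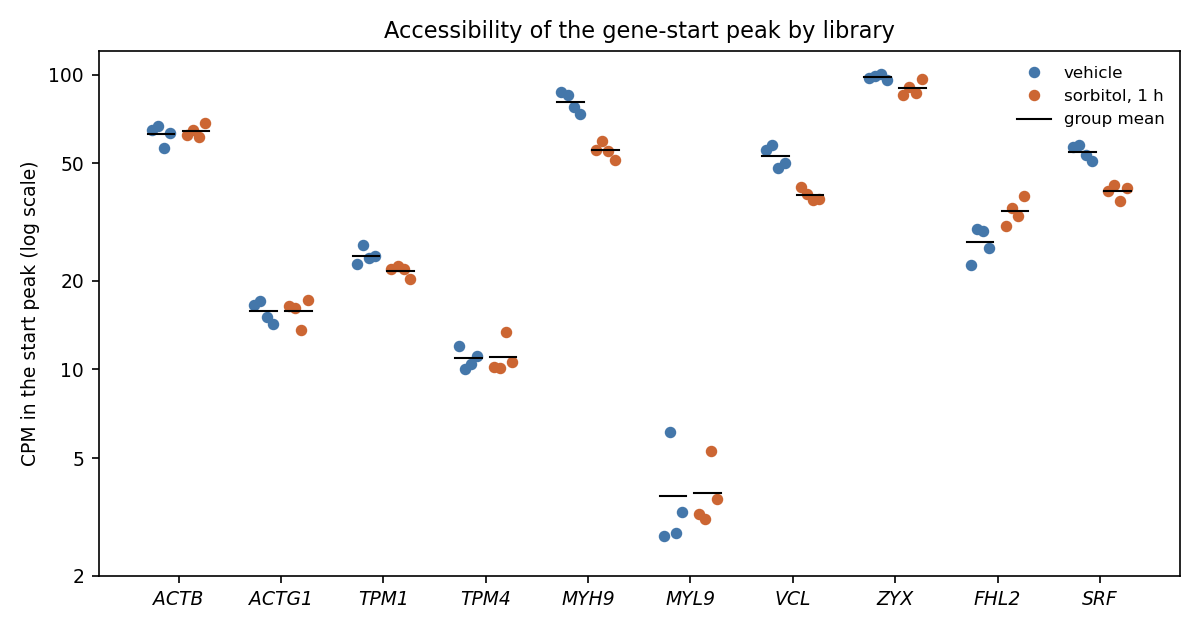
CPM in the start peak of each of the 10 genes (y axis, log scale) for the 4 vehicle and 4 sorbitol libraries, with lines at the group means. The groups stand apart and lower after sorbitol at MYH9, VCL and SRF. They are just apart at FHL2 (higher) and TPM1 (lower) and overlap at ACTB, ACTG1, TPM4, MYL9 and ZYX.

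Per kb of peak, vehicle libraries were most open at the MYH9 start (56.4 CPM per kb), followed by VCL (53.4), SRF (50.5) and ZYX (48.9). ACTB (36.9), FHL2 (24.8), ACTG1 (23.4), TPM1 (18.3), TPM4 (9.64) and MYL9 (7.53) followed. After sorbitol the order began with ZYX (44.7), VCL (39.5), MYH9 (38.5), ACTB (37.8) and SRF (37.1), and FHL2 stood at 31.7. A ratio of start peaks within a library is free of the library scaling. MYH9 over ACTB was 1.35, 1.278, 1.37 and 1.16 in vehicle and 0.885, 0.918, 0.894 and 0.752 in sorbitol libraries. FHL2 over SRF was 0.397, 0.518, 0.552 and 0.505 in vehicle and 0.763, 0.836, 0.888 and 0.943 in sorbitol libraries. Neither ratio overlapped between groups. These pairs were picked after their values were seen, so no test is given.

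The share of a gene window's counts that lies in its start peak is likewise free of scaling. It was lower without overlap at TPM1, from 51.4% ± 0.919 to 43.5% ± 1.55 (SD, n = 4), and at VCL, from 59.4% ± 1.82 to 54.3% ± 1.38. For TPM1 only the internal start counts as the start peak. The peak over its outer end counts among the rest, and its mean went from 12.0 CPM in vehicle to 14.6 CPM in sorbitol libraries, which lowers the share. At SRF it went from 49.8% ± 1.14 to 46.2% ± 1.48, with the highest sorbitol library at 48.15% and the lowest vehicle library at 48.16%. The share was higher without overlap at ACTB, from 83.3% ± 1.77 to 88.1% ± 0.973, and at TPM4, from 14.4% ± 1.11 to 21.5% ± 3.34. The TPM4 window holds the RAB8A start, whose lower counts by themselves raise the share of every other peak there. MYH9, MYL9, ZYX, FHL2 and ACTG1 overlapped between groups. Of 8439 protein-coding genes with at least 3 peaks in such a window and a peak at a start, the share was above vehicle without overlap in 10.8% and below it in 19.3%.

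**Figure D3:**
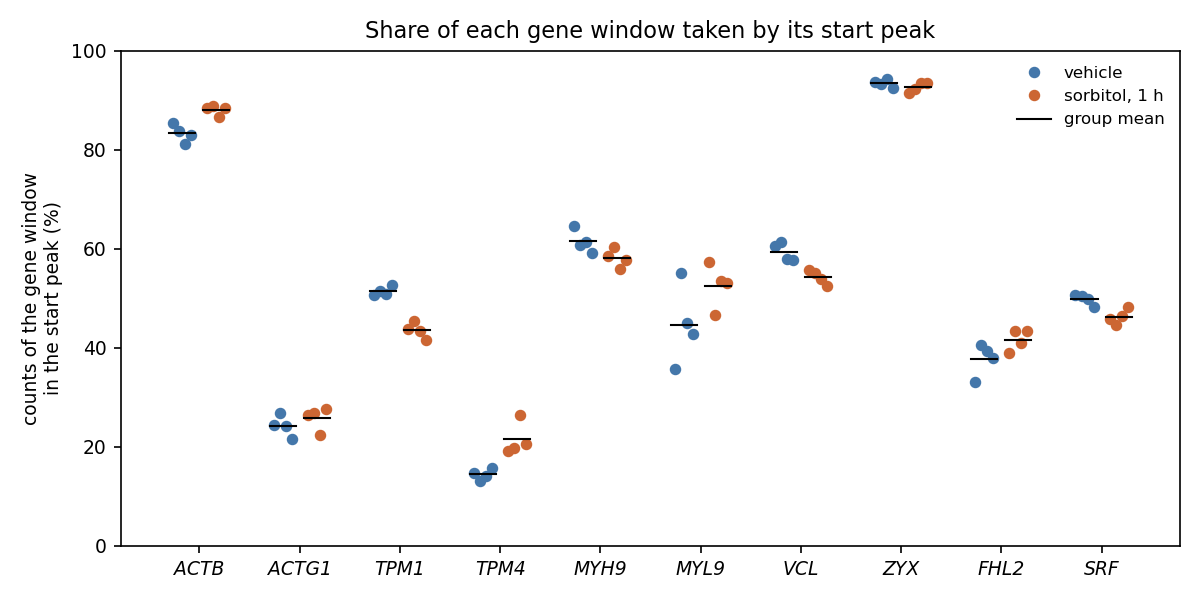
Percent of the counts of each gene window that fell in the start peak (y axis) for each library, with lines at the group means. Group means are 51.4 and 43.5% at TPM1 and 83.3 and 88.1% at ACTB, with no overlap between groups at either gene. The start peak of TPM1 is that over its internal start.

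Summed over the whole window, MYH9 went from 131.6 ± 7.66 to 95.1 ± 4.53 CPM, TPM4 from 75.97 ± 4.62 to 51.6 ± 1.02, SRF from 109.97 ± 4.03 to 87.0 ± 5.78 and VCL from 88.8 ± 4.90 to 71.9 ± 2.18 (SD, n = 4). FHL2 went the other way, from 71.3 ± 3.69 to 82.6 ± 4.61 CPM. Groups did not overlap in these 5 sums, nor in that of ZYX (104.96 ± 1.48 to 96.8 ± 5.04), where the highest sorbitol library, at 103.2, was just under the lowest vehicle library, at 103.4. The sums of ACTB, ACTG1, TPM1 and MYL9 overlapped between groups. So 5 of the 10 windows were below vehicle and 1 above it, where 49.7% and 8.93% of the same 8439 genes were. Most of the TPM4 difference lay in the RAB8A start: without it the TPM4 window had 19.5 ± 1.29 and 16.9 ± 2.43 CPM, and the groups overlapped.

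Among the start peaks of the 8 genes with listed starts, an exact CArG box in the 250 upstream bases did not sort them by direction. ACTB and MYL9 could not be scored, and boxes outside these windows were not searched. With a box, SRF was lower, FHL2 higher and ACTG1 not called, and without a match in the window, MYH9 and VCL were lower and ZYX, TPM1 and TPM4 not called. In the whole table, 149 tested start peaks had a CArG box upstream of a start they overlap. Of these 41.6% were lower and 6.04% higher, with a median of -0.19, close to the shares of all start peaks.

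Another 67 genes of the pathway were taken as 5 lists, of which 66 had peaks, 549 in all (ACTC1 had none). Among these, 86 peaks rose and 95 fell, and their median was -0.03 (131 and 58 with factors from peaks near gene ends). These are 15.7% and 17.3% of the peaks, beside 16% and 13.1% of all tested peaks. Their 65 start peaks held 28 lower (43.1%, near the 42.1% of all start peaks) and 4 higher, with a median of -0.18. Their 485 other peaks, which include starts of neighbouring genes, held 67 lower and 82 higher. A peak at the start of a listed gene that lies in the window of another counts in both. Actin isoforms and actin dynamics had 30 lower and 14 higher of 108 peaks, and off starts 21 lower and 14 higher of 93. Myosin and thin filament genes had 23 lower and 19 higher of 109. SRF cofactors had 10 lower and 6 higher of 46, crosslinkers and adhesion genes 23 lower and 32 higher of 199, and other SRF targets 9 lower and 15 higher of 91. Start peaks were lower at 9 of 15, 6 of 15, 4 of 7, 5 of 18 and 4 of 10 in that order. List medians in the same order were -0.14, -0.06, 0.04, -0.01 and 0.11.

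**Figure D4:**
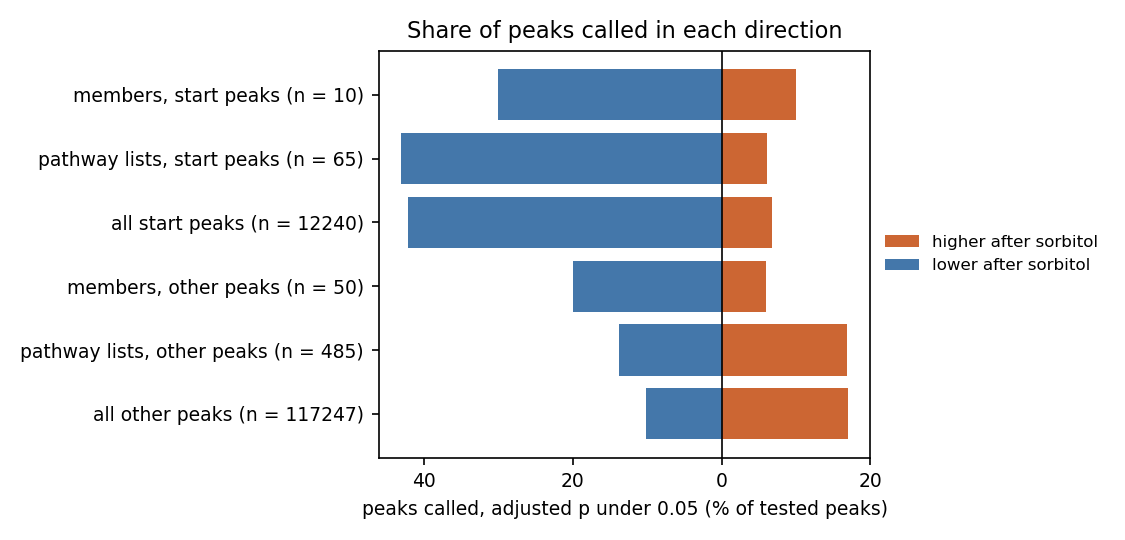
Percent of tested peaks called lower (left of 0) and higher (right of 0) after sorbitol, for start peaks and all other peaks of the 10 genes, of the pathway lists and of the whole table, with the number of peaks in brackets. Start peaks had more lower than higher calls in all 3 groups, but for the 10 genes only 3 against 1, with 5 of the 10 changes above 0. Among other peaks lower calls outnumber higher ones for the 10 genes but not for the pooled lists or the whole table. Other peaks of the 10 genes and the lists include starts of neighbouring genes, whereas those of the whole table overlap no listed RefSeq start.

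By the naming rule, each pathway list gave the 2 peaks with the smallest p. TES, which encodes the adhesion protein testin, supplied both for its list. A peak over an internal TES start on chromosome 7 (116222368 to 116223040) had 10.5 ± 0.757 CPM in vehicle and 23.7 ± 1.98 in sorbitol libraries (SD, n = 4) and rose by 1.17 on the log2 scale (adjusted p = 1.04e-12), and the body peak at 116217879 to 116218961 rose by 0.61. Among the cofactors, a peak deep inside MRTFA, which senses free actin for SRF (chromosome 22, 40417860 to 40418255), rose from 1.276 ± 0.242 to 4.10 ± 0.523 CPM, a change of 1.69 (adjusted p = 1.57e-07). A peak at the low-coordinate end of MYOCD, the muscle cofactor of SRF (chromosome 17, 12665325 to 12666210), rose by 0.91. A peak in the flank of PDLIM5, a LIM protein of the actin cytoskeleton (chromosome 4, 94447628 to 94448401), rose by 0.87. The other 5 fell, and 4 of them overlap starts of neighbours: MUS81 beside CFL1 (-0.97), RNF167 and SLC25A11 beside PFN1 (-0.64), GPX1 beside RHOA (-0.61) and SF3A3 beside FHL3 (-0.65). The fifth lay in the CNN2 flank (chromosome 19, 1044528 to 1045662) with -0.73.

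The cell line was checked by peaks over a RefSeq start or within 1 kb of an end of marker genes. PAX2 and LIN28B, known to be expressed in HEK293, had such peaks at means of 33.2 and 24.5 CPM, NEFM and EYA1 at 5.56 and 2.199 CPM, and SALL4 had none. Of markers of other cell types, CD3E, ALB and KRT5 had none and PTPRC had 1.16 CPM, whereas the strongest such peak of the muscle gene MYOD1 had 21.3 CPM.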

How the data were processed

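The authors deposited 1 table of raw counts per peak for 8 ATAC-seq libraries, and every value was a whole number. Per the submitters' processing notes, the tools included Trim Galore 0.6.10, BWA 0.7.17, SAMtools 1.22, Picard, MACS2 2.2.9.1 and DESeq2, and the build was GRCh38 (hg38); whether reads or fragments were counted, and how peaks were merged, is not given in the sources used here. Columns were assigned by treatment and number in their names. Coordinates are as in the table.

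Members, gene lists and tests were chosen with earlier results of these data known. Genes and starts came from RefSeq tables of GRCh38.p14, which give no exons. ACTB and MYL9 have no listed start, so the peak within 1 kb of their 5′ end, known from general knowledge, was used. Counts were tested with edgeR 4.0.16 in R 4.3.3 (filterByExpr, minimum count 10 and total 15; TMM; quasi-likelihood test with treatment as the only term), with Benjamini-Hochberg adjustment over 129487 peaks. The SE is the log2 fold change divided by the square root of F, and 95% intervals are normal intervals from it. On simulated counts for 129487 peaks, 114 of 200 peaks changed 2-fold were recovered with 4 false calls. The simulation used the same dispersion of 0.03 at every peak and left all other peaks unchanged. In the real data 37717 peaks were called, so this recovery is not the power of the real test. DESeq2 1.42.0 was an alternative. Named peaks were, per gene, the start peak, the strongest and that with the smallest p, any changed at least 2-fold, and 2 per pathway list; other peaks named were chosen after their values were seen.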

Additional observations from a re-analysis of the deposited data

Results flagged for a closer look

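In 36 groups of 4 libraries, 2 had a library far from the other 3, where chance alone gives about 1.8. At the TPM4 start peak, sorbitol 3 had 13.4 CPM and the other sorbitol libraries 10.1 to 10.6 CPM. At the MYL9 start peak, vehicle 2 had 6.14 CPM and the other vehicle libraries 2.72 to 3.28 CPM. Neither peak was called, and the cause was not tested.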

How the results depend on the processing

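The 4 higher members became 2 at an adjusted p under 0.01 or with the DESeq2 Wald test and 9 with factors from peaks near gene ends, and leaving out a library gave 2 to 5 (2 without vehicle 3, sorbitol 1 or sorbitol 3). With the factors from peaks near gene ends, 9 members were lower; leaving out a library gave 11 to 13. Pathway peaks numbered 120 at the stricter threshold (48 higher); 131 were higher and 58 lower with gene-end factors, and 51 were higher once a mean under 50 counts was filtered out. All 17 called members kept their direction in every fit that tested them (that filter tested 13); 13 kept the call with the loess offset and 13 with gene-end factors. Without flanks, 3 members were higher and 9 lower; without peaks near ends of other genes, 4 and 9.

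Changes near 0 turned sign, none called on either side: ACTG1 start, -0.00557 with DESeq2 size factors and -0.00574 with its Wald test; MYL9, -0.00931, and ZYX, 0.0905, with the loess offset; TPM1 start 0.00580 and ZYX 0.0465 with gene-end factors. Leaving out a library gave -0.0142 to 0.0669 at ACTB, -0.0441 to 0.0704 at ACTG1, -0.166 to 0.380 at MYL9 and -0.0877 to 0.0681 at TPM4. Whether vehicle and sorbitol libraries of the same number were paired is not stated. Correlations of their deviations were 5.59e-05, 0.00768, -0.0338 and -0.148, and those between unlike numbers ran from -0.0590 to 0.101. Such small values cannot decide whether libraries were prepared as pairs. With the replicate block 3 members were higher and 12 lower. The cause of these shifts was not tested, apart from the stricter threshold and the smaller windows, which account for theirs.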
